A study of Mus musculus with 2 samples.

Results

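Gene deserts are long stretches of the genome with no protein-coding gene. The 4253 regions described here, called desert peaks, are DNase I hypersensitive peaks found in both libraries of mouse hippocampus tissue. They lie outside annotated genes and far from the start of any protein-coding gene. They were taken from the longer peak list of replicate 1, which holds 93545 peaks, and make up 4.55% of it. Some of them overlap one another, so their number counts listed peaks and not separate open sites. Members were chosen by measured values and by position. Each overlapped a peak of the library labelled male replicate 2 by at least 1 bp, had a peak value under 2 in replicate 1, lay in no annotated gene body, and had its middle base more than 100 kb from every transcription start site (TSS) of a protein-coding gene. The rule set no least distance from the end of a gene or from a noncoding gene. Of the 93545 peaks, 29710 lay in no gene body and 8561 of these were also more than 100 kb from a TSS. Of those, 4327 were shared, and 74 with a value of 2 or more were left out. The members overlapped 4309 of the 79144 peaks of replicate 2, and 4006 of them had 1 partner there.

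The tissue of both libraries carries the label layer of hippocampus, without saying which layer, and came from B6CASTF1/J mice labelled male and 25 days old. These are hybrids of a C57BL/6J parent and a parent of the wild-derived CAST/EiJ strain. The libraries form 1 group of 2 biological replicates with no treatment, so no condition can be compared. The labels give the tissue samples separate entries under 1 donor entry, so that separate animals are not known and the spread between the libraries may be technical. Reads of CAST alleles placed on a C57BL/6J genome were not told apart from those of the other parent in the files used here.

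The library labelled male replicate 2 went against its label at most genes checked. It had no peak at the promoters of the Y-linked genes Ddx3y and Uty, where replicate 1 had values of 0.707 and 0.678, and it had a peak of 1.01 at the promoter of Xist, the RNA gene of the inactive X chromosome, where replicate 1 had none. Kdm5d and Eif2s3y, also Y-linked, had 1 peak each in replicate 1 and 0 in replicate 2. Other counts did not part the libraries in this way, with 39 peaks on the whole Y chromosome in replicate 2 and 40 in replicate 1, and 2 and 1 within the gene body of Uty. Hippocampal markers were open in both libraries, with promoter values in replicates 1 and 2 of 1.51 and 1.06 at Prox1 (dentate granule cells) and of 2.40 and 2.53 at Wfs1 (CA1 pyramidal cells). Of the excitatory neuron genes checked, Slc17a7 (1.05 and 1.01) and Tbr1 (1.70 and 0.993) had promoter peaks in both libraries. So did Pcp4 (CA2), Gad1 (inhibitory neurons), and Slc1a3 and Gfap (astrocytes). No marker of CA3 cells alone was checked. Promoter peaks of Neurod2 (also excitatory neurons, 2.12) and Olig2 (oligodendrocyte lineage, 0.996) were found in replicate 1 alone. Cx3cr1 (microglia), Cldn5 (endothelium) and Alb (liver) had none in either library. In bulk tissue, fewer cells of a type and less open DNA per cell cannot be told apart.

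Enhancers can act on a gene from far away, and deserts beside genes of development often hold many of them. DNase I cuts such open sites, and a bound protein shields a few bases inside them as a footprint. CTCF is a zinc finger protein that anchors chromatin loops together with cohesin. Basic helix-loop-helix factors, among them the neuronal NEUROD factors, bind E-boxes, and nuclear factor I (NFI) proteins, which act in neurons and glia, bind a paired site or its single core.

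The sequences below show what open desert sites look like base by base, from the reference genome GRCm38.p6 (mm10), plus strand. The first 3 are among the strongest members of at most 300 bases whose CTCF consensus match lay in a footprint of both libraries, counted by the middle base of the match. The others are among the strongest such members with an E-box or an NFI core in a footprint of both libraries, counted in the same way. They held no CTCF match, even with 1 mismatch, anywhere in the peak. A looser screen was not made. The letters around the E-box between Cdh26 and Cdh4, and others in the peak between Rgs1 and Rgs21, resemble the CTCF consensus with more mismatches. These peaks are therefore not shown to be free of CTCF sites. Capitals mark the match that gives each its name.
CTCF between Ccdc54 and Cblb, chr16:50736861-50737020: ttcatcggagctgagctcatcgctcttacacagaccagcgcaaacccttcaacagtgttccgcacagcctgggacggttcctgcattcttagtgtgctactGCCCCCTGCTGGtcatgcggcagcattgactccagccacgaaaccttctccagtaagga
CTCF between Lrrtm3 and Reep3, chr10:66853281-66853480: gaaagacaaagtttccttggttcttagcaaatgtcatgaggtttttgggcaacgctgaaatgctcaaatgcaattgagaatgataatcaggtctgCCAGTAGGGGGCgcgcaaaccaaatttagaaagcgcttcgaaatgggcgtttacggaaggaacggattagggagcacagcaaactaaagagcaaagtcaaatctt
CTCF between C9orf72 and Lingo2, chr4:35373021-35373200: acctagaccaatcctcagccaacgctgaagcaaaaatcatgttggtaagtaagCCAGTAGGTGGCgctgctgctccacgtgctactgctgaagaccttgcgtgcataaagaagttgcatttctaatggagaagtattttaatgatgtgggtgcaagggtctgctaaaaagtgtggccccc
E-box CAGATG between Rgs1 and Rgs21, chr1:144406741-144406920: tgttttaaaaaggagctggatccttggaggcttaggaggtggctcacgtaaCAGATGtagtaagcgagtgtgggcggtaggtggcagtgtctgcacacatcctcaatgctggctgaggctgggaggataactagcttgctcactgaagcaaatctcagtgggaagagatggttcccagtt
E-box CAGATG between Cdh26 and Cdh4, chr2:178629841-178630060: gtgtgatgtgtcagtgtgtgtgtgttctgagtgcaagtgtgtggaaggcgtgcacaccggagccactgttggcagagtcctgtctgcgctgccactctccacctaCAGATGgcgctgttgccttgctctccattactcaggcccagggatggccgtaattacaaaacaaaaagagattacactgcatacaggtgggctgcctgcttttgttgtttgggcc
E-box CAGCTG between Cmpk2 and Sox11, chr12:26781601-26781880: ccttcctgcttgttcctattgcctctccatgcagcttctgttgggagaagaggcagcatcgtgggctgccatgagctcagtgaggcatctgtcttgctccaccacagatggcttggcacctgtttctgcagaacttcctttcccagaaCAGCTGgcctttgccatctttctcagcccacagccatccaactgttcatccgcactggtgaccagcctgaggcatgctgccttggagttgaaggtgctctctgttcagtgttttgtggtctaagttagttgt
NFI core between Klhl25 and Agbl1, chr7:75983541-75983780: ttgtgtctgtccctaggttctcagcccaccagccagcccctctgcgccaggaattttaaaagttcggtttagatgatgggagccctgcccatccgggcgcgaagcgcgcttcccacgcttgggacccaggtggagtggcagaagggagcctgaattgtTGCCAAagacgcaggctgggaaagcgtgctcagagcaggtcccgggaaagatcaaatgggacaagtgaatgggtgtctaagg
NFI core between Chst1 and Syt13, chr2:92811041-92811238: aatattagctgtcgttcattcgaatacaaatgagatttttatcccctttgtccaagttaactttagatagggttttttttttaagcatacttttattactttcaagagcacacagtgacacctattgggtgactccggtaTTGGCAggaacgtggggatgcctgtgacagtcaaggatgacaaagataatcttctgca

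The CTCF member between Ccdc54 and Cblb, a ubiquitin ligase gene, had values of 1.85 in replicate 1 and 2.46 in replicate 2. Its match at bases 50736962 to 50736973 of chromosome 16 lay inside a footprint of each library, from 50736950 to 50736979 and from 50736948 to 50736979. The one between Reep3 and the synaptic adhesion gene Lrrtm3 had 1.96 in both libraries after rounding, and the one next to C9orf72, whose human counterpart is tied to motor neuron disease, had 1.95 and 1.97. The E-box member between Cdh26 and Cdh4, both cadherin genes, had 1.51 and 1.26. The one between Cmpk2 and Sox11, a transcription factor gene of immature neurons, had 1.36 and 1.20, and its E-box at bases 26781749 to 26781754 of chromosome 12 lay in footprints from 26781748 to 26781762 and from 26781744 to 26781759. The NFI members had 1.87 and 1.05 next to Klhl25 and 1.16 and 1.37 next to Syt13, a gene of the synaptotagmin family. These sites stood at the upper end of the members' values in both libraries, and neither library was the higher one throughout.

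Desert peaks were weak next to other shared peaks under the same limit of 2. The peak value is the authors' signal at each peak, and the sources used here do not give its scale, so the number of cuts behind a value is unknown. The median over the members was 0.551 in replicate 1 (quartiles 0.403 and 0.777) and 0.496 in replicate 2 (0.380 and 0.709), a mean of 0.524 ± 0.0388 (SD, n = 2 libraries). The 10006 shared intergenic peaks that lay 1 to 100 kb from a TSS had medians of 0.770 and 0.722 (0.746 ± 0.0341), and the 12128 shared intronic peaks of protein-coding genes 0.763 and 0.677 (0.720 ± 0.0611). The median of the members was thus below both other groups in each library, by more than the spread between the libraries. These values took part in choosing the peaks and are given as a description. Over each group as a whole the median width was alike, with 220 bp in members, 219 bp in nearer intergenic peaks and 220 bp in intronic peaks. Among peaks of like value members were wider, with a median of 300 bp against 252 bp and 260 bp for values of 0.8 to 1.2.

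Within the members the values of the libraries moved together. Spearman's rho was 0.79 over the 4253 regions, which share their libraries and are not replicates, and 97.5% of the members lay within 2-fold. Replicate 1 was the higher library in 2599 members and replicate 2 in 1654, with a median log2 ratio of replicate 2 over replicate 1 of -0.11. The rule limits the value in replicate 1 alone, and 28 members had 2 or more in replicate 2. Members just inside the limit had replicate 1 values of 1.9998 (next to Chic2) and 1.9927, and the nearest shared desert peaks just outside had 2.0210. The members nearest to a TSS lay 100089 bp from it and the nearest shared intergenic peak on the other side of that limit 99997 bp.

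**Figure D1:**
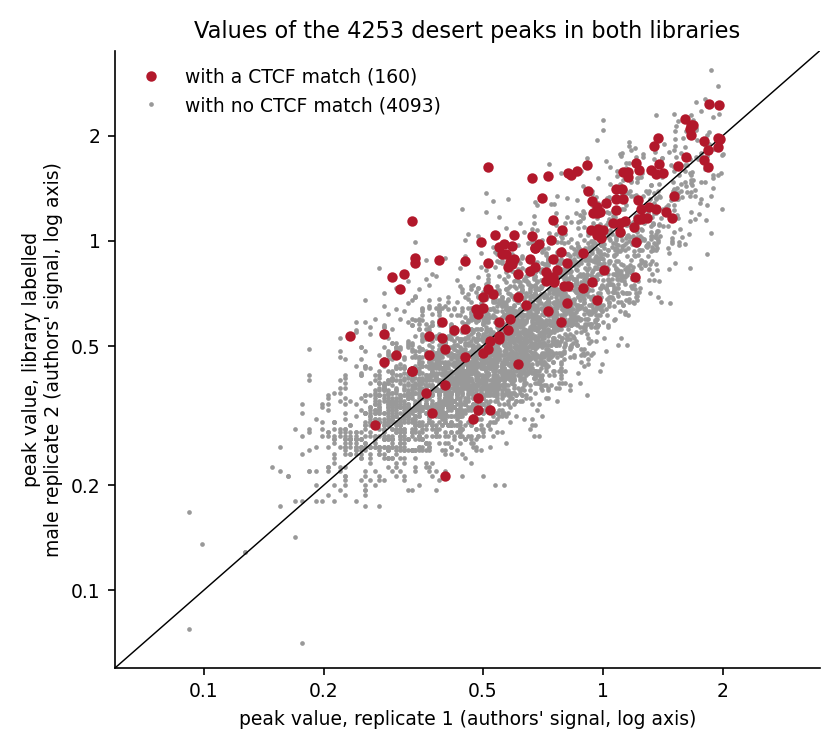
Peak values of the 4253 desert peaks, with replicate 1 on the horizontal axis and the library labelled male replicate 2 on the vertical one, both log axes, with 1 point per peak and a line of equal values. The 160 peaks with a CTCF match, drawn in red, lie mostly above the line (118 of 160), while the others lie more often below it.

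The strongest members were few. By mean value the first lay on chromosome 18 from 3004801 to 3004980, near the vomeronasal receptor gene Vmn1r238, with 1.87 in replicate 1 and 3.09 in replicate 2. Of its bases 68.9% were soft-masked as repeats, and 5 near-identical copies occurred elsewhere in the reference, which limits how firmly its value belongs to this place. The others among the first 10 had 0 such copies. Next came members 221 kb from Rragc, a gene of the amino acid sensing pathway (1.95 and 2.78), 451 kb from Mex3c in the interval that Dcc, the netrin receptor gene, bounds on the other side (1.96 and 2.44), and 415 kb from Igsf11 in the interval shared with Lsamp, both genes of cell adhesion (1.80 and 2.55). All of the first 10 had the higher value in replicate 2, where no limit applied.

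Footprints were found in a smaller share of desert peaks than of nearer ones. In replicate 1 76.1% of the members held the middle of a footprint and in replicate 2 68.1% (72.1% ± 5.65, SD, n = 2), against 83.9% and 77.4% of nearer intergenic peaks (80.7% ± 4.65) and 81.5% and 73.9% of intronic peaks (77.7% ± 5.40). Both libraries had a footprint in 57.6% of members (2448 of 4253, 95% exact interval 56.1 to 59.1), where the share over all 46162 shared peaks under 2 was 65.6%. Nearer intergenic peaks reached 69.7% (68.8 to 70.6) and intronic peaks 65.4% (64.5 to 66.2). Exact intervals cover counting error only. In 13.3% of members neither library had one, against 10.7% of all shared peaks under 2. A footprint of replicate 1 that overlapped one of replicate 2 was present in 34.8% of members, 51.2% of nearer intergenic and 44.3% of intronic peaks. Over all shared peaks under 2 it was 45.1%. For replicate 1 values of 0.8 to 1.2 this share was 63.1% in members, 64.8% in nearer intergenic and 55.1% in intronic peaks. In each value class members were above intronic peaks and, after rounding, at or below nearer intergenic peaks.

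Among peaks of like value the share of members with a footprint in both libraries was not below that of the other groups. For replicate 1 values under 0.4 it was 24.1% in members (21.5 to 26.7), 23.1% in nearer intergenic peaks (20.4 to 25.9) and 20.9% in intronic peaks (18.4 to 23.6). For values of 0.8 to 1.2 it was 87.0% in members (84.3 to 89.4), 83.7% in nearer intergenic peaks (82.2 to 85.1) and 78.8% in intronic peaks (77.4 to 80.1), and for 1.2 to 2 it was 94.4%, 94.1% and 92.2% in that order. Against nearer intergenic peaks the intervals overlapped in all 5 value classes. Against intronic peaks the members' interval lay higher in the 3 classes between 0.4 and 1.2. By peak width the order was the reverse, and members had the lowest share in each width class. Of peaks under 150 bp it was 24.0% in members, 38.8% in nearer intergenic and 35.9% in intronic peaks. At 300 bp or wider it was 78.3%, 82.4% and 79.8%, and there the intervals of members and intronic peaks overlapped.

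**Figure D2:**
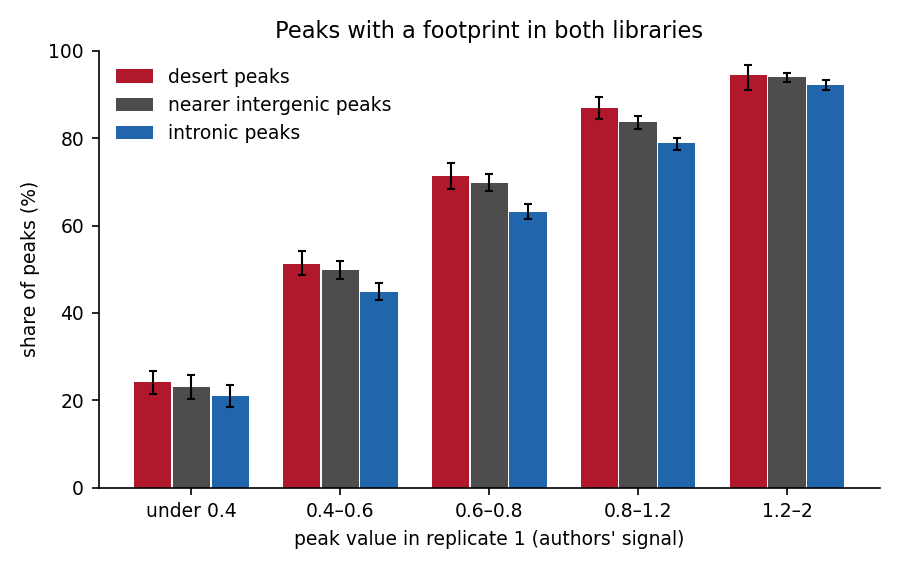
Share of peaks with a footprint in both libraries, in percent, by peak value in replicate 1, for desert peaks, nearer intergenic peaks and intronic peaks. Bars are shares and lines are 95% exact intervals. The share is higher in each higher value class, and in desert peaks it is 24.1% in the lowest class and 94.4% in the highest.

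The authors' stricter peak list, which rests on a lower false discovery rate, held a smaller share of the members too. Of the 4253, 1386 (32.6%, 31.2 to 34.0) touched a stricter peak in both libraries, against 46.5% of all shared peaks under 2, 43.5% of nearer intergenic peaks and 34.5% of intronic peaks. By library the members' share was 48.5% in replicate 1 and 45.1% in replicate 2 (46.8% ± 2.41, SD, n = 2). Among peaks of like value the order was another one. The members' share was lower under 0.4, with 3.60% against 8.05% of nearer intergenic and 13.3% of intronic peaks, and higher in the other 4 value classes. It was 18.4% against 12.9% and 8.50% between 0.4 and 0.6, 70.9% against 58.2% and 45.0% between 0.8 and 1.2, and 96.3% against 89.3% and 82.4% at 1.2 or more. By peak width the members' share was below that of nearer intergenic peaks in each class. It was 36.0% against 52.7% between 200 and 300 bp, and 52.6% against 58.1% at 300 bp or wider. Intronic peaks had 41.7% and 50.9% in these classes, so that against them the order went both ways.

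Desert peaks were islands of GC in AT-rich surroundings. In the 150 bases around the middle base the median GC was 50.7% (quartiles 48.0% and 54.7%), where windows 1 kb to either side had 42.3% and all desert sequence that met the rule's position limits had 39.1%. Nearer intergenic peaks had 53.3% against 46.3% in their flanks, and intronic peaks 53.3% against 46.7%. CpG pairs were found at 0.298 of the number that base composition gives, against 0.349 in nearer intergenic peaks and 0.304 in intronic peaks. The ratio of members was thus close to that of intronic peaks. GC and peak value were weakly related over members (Spearman's rho 0.27 in replicate 1 and 0.14 in replicate 2, n = 4253). Peaks with more than 50% soft-masked bases, a mark of repeats, were few in every group, with 2.35% of members (1.92 to 2.85), 2.85% of nearer intergenic peaks (2.53 to 3.19), 2.08% of intronic peaks (1.83 to 2.35) and 1.77% of all shared peaks under 2 (1.65 to 1.90).

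A few members had the makeup of CpG islands. The 5 highest in GC had 76.7% to 82.0% in the window and 18 to 28 CpG pairs. They included a member of 480 bp on chromosome 3 from 143100681 to 143101160 (1.07 in replicate 1, 0.954 in replicate 2). Its nearest coding gene was Pkn2, at 219 kb, and Lmo4, a transcriptional cofactor gene of cortical neurons, bounds the interval on the other side. Another lay on chromosome 8 from 92460701 to 92461106 between Irx5 and Irx6, patterning factor genes (0.700 and 0.587). The member on chromosome 18 from 23310001 to 23311000 (1.87 and 1.35), which also had the most footprints (11 and 10), lay in no GENCODE gene body but inside the longer Dtna gene of RefSeq, whose product belongs to the dystrophin complex. In all, 592 members (13.9%) lay in a gene body of RefSeq, 519 of them in a long noncoding RNA gene and 49 in a protein-coding gene. The annotation therefore sets what counts as a desert.

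CTCF matches were less frequent in desert peaks than in nearer peaks. The consensus was found in the 150-base window of 160 members (3.76%, 3.21 to 4.38), against 0.106% of their flanking windows. The share was 5.28% over all shared peaks under 2, 9.89% in nearer intergenic peaks (9.32 to 10.5) and 7.18% in intronic peaks (6.73 to 7.66). Among peaks of like value the share was again below that of nearer intergenic peaks, in each of the 5 classes. It was 1.89% (1.16 to 2.91) in members and 4.29% (3.08 to 5.80) in nearer intergenic peaks under 0.4, and 5.26% (3.71 to 7.20) against 11.3% (10.1 to 12.5) between 0.8 and 1.2. In the class of 1.2 to 2 the members reached 12.6% (9.09 to 16.9) and nearer intergenic peaks 18.4% (16.7 to 20.1), and there alone the intervals overlapped. Against intronic peaks the intervals overlapped in all 5 classes, for example between 0.8 and 1.2, where intronic peaks had 7.58% (6.73 to 8.50).

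**Figure D3:**
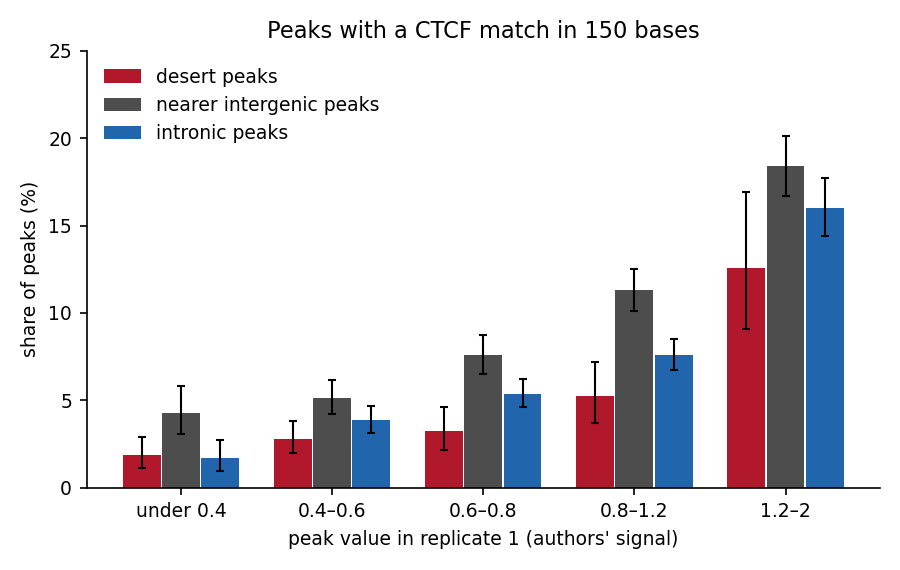
Share of peaks with a CTCF consensus match in the 150 bases around the middle base, in percent, by peak value in replicate 1, for desert peaks, nearer intergenic peaks and intronic peaks. Bars are shares and lines are 95% exact intervals. Desert peaks lie below nearer intergenic peaks in every class, with 1.89% against 4.29% in the lowest.

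The consensus is strict, and allowing 1 mismatch, a setting chosen after seeing the data, gave 11.1% in members, 23.8% in nearer intergenic peaks and 18.3% in intronic peaks, against 1.28% in flanks of members. The order held with replicate 1 peaks taken without replicate 2 (2.00%, 5.85% and 3.57%) and with replicate 2 peaks taken without replicate 1 (3.37%, 8.88% and 6.37%). CTCF members were narrow. Of members 150 to 200 bp wide, 10.6% held the consensus (8.33 to 13.3), and of those 300 bp or wider 0.158% (2 of 1264), or 2.22% when the whole peak was searched.

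Members with the CTCF consensus differed from the rest in other readouts. Of the 160, 112 (70.0%) had the match in a footprint of both libraries, against 81.7% of nearer intergenic, 82.8% of intronic and 81.0% of all shared peaks under 2 with the consensus, whose median replicate 1 values were higher (1.02 to 1.03, against 0.753). Their stricter-list share was 65.0% against 31.3% in members with no match, and 88.8% against 56.3% had a footprint in both libraries. Their median value was 0.753 in replicate 1, against 0.964 for the library labelled male replicate 2, a median log2 ratio of replicate 2 over replicate 1 of 0.29. Members with no match had 0.551 and 0.490, a log2 ratio of -0.13. Replicate 2 was the higher library in 118 of the 160 members (73.8%) and in 37.5% of the others. This was not limited to deserts, since 74.8% of nearer intergenic peaks with the consensus and 40.0% of those with no match were higher in replicate 2. With 1 library on each side there is no test of this difference.

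Over each group as a whole, E-boxes and NFI cores were more frequent in desert peaks than in the other groups. CAGATG was found in 964 members (22.7%, 21.4 to 24.0) against 11.7% of flanking windows. It was found in 15.2% of all shared peaks under 2, 17.1% of nearer intergenic peaks (16.4 to 17.9) and 19.6% of intronic peaks (18.9 to 20.4). CAGATG can lie within a CTCF site, and counted only outside any CTCF match with 1 mismatch the shares were 21.8%, 15.8% and 18.5% in members, nearer intergenic and intronic peaks. CAGCTG was found in 17.3% of members (16.2 to 18.5) against 5.85% of their flanks and 14.1% of all shared peaks under 2. Nearer intergenic peaks had 14.7% (14.0 to 15.4) and intronic peaks 15.6% (15.0 to 16.3), and the last interval overlapped that of members. One or both of these E-boxes stood in 36.2% of members, 29.3% of nearer intergenic, 32.4% of intronic and 27.1% of all shared peaks under 2. The NFI core TTGGCA was found in 742 members (17.4%, 16.3 to 18.6) against 7.69% of flanks, 11.4% of all shared peaks under 2, 12.1% of nearer intergenic peaks (11.4 to 12.7) and 14.4% of intronic peaks (13.7 to 15.0). Matches were counted on both strands. The flanks of members had a median GC of 42.3%, against 50.7% in the windows of members. Base makeup thus differed in each comparison with flanks, that of the CTCF consensus among them. Its part in these differences was not tested.

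These shares, unlike that of CTCF, were not higher at higher peak values. CAGATG stood in 24.1% of members under 0.4 and in 20.9% of those of 1.2 or more, and the NFI core in 16.7% and 11.6%. In each of the 5 value classes the CAGATG share was higher in members than in nearer intergenic peaks, where it ran between 14.8% and 19.1%. The NFI core was also more frequent in members than in nearer intergenic peaks in each class, by the least in the class of 1.2 to 2, where nearer intergenic peaks had 11.2%. Against intronic peaks the order went both ways. In the class of 1.2 to 2 the NFI core stood in 11.6% of members and 12.2% of intronic peaks. CAGCTG was less frequent in members than in intronic peaks between 0.8 and 1.2 (15.5% against 16.4%) and at 1.2 to 2 (13.6% against 15.2%). In the other classes both were more frequent in members, and CAGATG was so in every class. Footprints rarely covered these short matches in both libraries, in 80 of the 964 members with CAGATG (8.30%), 32 of 737 with CAGCTG (4.34%) and 21 of 742 with the NFI core (2.83%). Over all shared peaks under 2 these shares were 8.85%, 5.67% and 4.51%. A match is a string of letters and not a bound site.

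**Figure D4:**
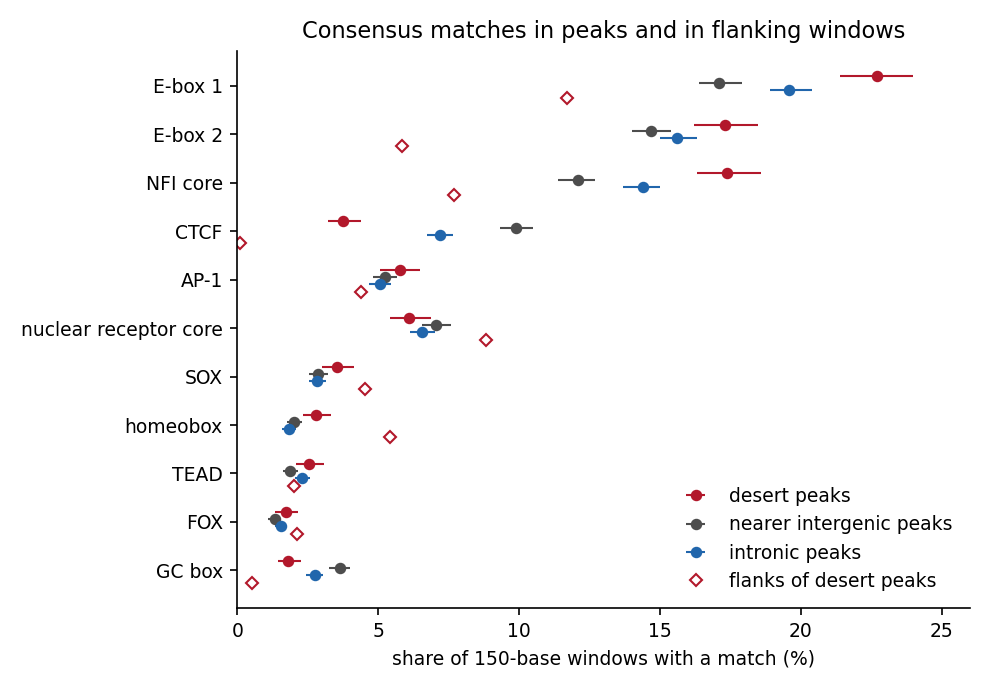
Share of 150-base windows that hold a consensus match, in percent, for desert peaks, nearer intergenic peaks, intronic peaks and the windows 1 kb to either side of desert peaks. E-box 1 is CAGATG and E-box 2 is CAGCTG, and lines are 95% exact intervals for the peaks. Desert peaks stand highest for both E-boxes and the NFI core and lowest of the 3 kinds of peak for CTCF (3.76%).

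Several other consensus letters were less frequent in peaks than in flanking windows, in members as in all shared peaks under 2. For homeobox, SOX and FOX letters the share of members was above that of all shared peaks, and for the nuclear receptor core it was close to it. The homeobox core TAATTA stood in 2.80% of members (2.32 to 3.34) and 5.41% of their flanks, against 1.60% of all shared peaks and 3.86% of their flanks. SOX letters (ACAATGG or AACAATG) stood in 3.53% and 4.53%, against 2.48% and 3.49%. FOX letters (TGTTTAC) stood in 1.72% (1.35 to 2.15) and 2.12%, against 1.25% and 1.96%, and the flank value of members lay within the interval of their share. The nuclear receptor core AGGTCA stood in 6.11% (5.41 to 6.88) and 8.83%, against 6.26% and 8.94%. The flanks are richer in A and T, so that the base makeup of these windows differs too. AP-1 letters (TGANTCA) stood in 5.76% of members and 4.39% of their flanks, against 4.14% and 4.03%. At least 1 of the 17 motifs searched was found in 61.2% of members, and in a footprint of both libraries in 255 members. In the other members no such match lay in a footprint of both libraries. The share and count for any of the motifs were made for members alone. Whether they differ from those of other shared peaks was not tested.

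Desert peaks thinned out with distance from the TSSs of protein-coding genes. The median distance to the nearest TSS was 226 kb and the largest 2190 kb, midway between Celf4, a neuronal RNA-binding protein gene, and Pik3c3, a lipid kinase gene. TSSs of genes that are not protein-coding were closer, at a median of 43.1 kb, against 24.0 kb for nearer intergenic peaks. On the autosomes there were 10.2 members per Mb of eligible desert sequence 100 to 200 kb from a TSS, 7.07 at 200 to 500 kb, 3.45 at 500 to 1000 kb and 1.60 beyond. Values were lower farther out as well. The median replicate 1 value was 0.608, 0.551, 0.431 and 0.343 in these classes, and that of replicate 2 was 0.548, 0.490, 0.413 and 0.345. A footprint in both libraries was found in 59.7%, 58.0%, 51.4% and 41.5% (32.0 to 51.5 in the farthest class, 106 members). The farthest class still held members of moderate value, such as that on chromosome 18 from 28077981 to 28078200 (1.58 in replicate 1, 1.33 in replicate 2) beside one on the same chromosome from 27947520 to 27947860 with 0.332 and 0.329. Distance was used by the rule, and these values are a description.

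The members were spread over many deserts and gathered in some. Eligible sequence, outside all gene bodies and more than 100 kb from a TSS, came to 747 Mb or 28.2% of the genome in 1861 intervals between neighbouring TSSs, of which 1068 (57.4%) held a member. In 311 there was 1 member and in 87 there were 10 or more, and these 87 held 28.3% of all members. Zfp608 to Gramd3 on chromosome 18 held the most, 32 members over 1410 kb (median values 0.643 and 0.551), with a further 18 on the other side of Zfp608, a zinc finger gene. Vrk1 to 3110018I06Rik on chromosome 12 held 28 (0.700 and 0.654), and Auts2 to Castor2 on chromosome 5 held 27 (0.615 and 0.535). Auts2 is a chromatin regulator gene of neuronal development. The desert of Camk1g, a calcium-dependent kinase gene, and Plxna2, a semaphorin receptor gene, held 21 (0.798 and 0.580). The densest of the deserts with 10 members or more were Gjb5 to CK137956 (41.8 per Mb) and Eipr1 to Myt1l (40.3 per Mb). Myt1l encodes a transcription factor of neurons.

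At a finer scale 1511 members (35.5%) lay within 10 kb of another, against 45.1% of nearer intergenic peaks. The longest run had 10 members over 10.7 kb on chromosome 6 between Npvf, a neuropeptide gene, and Nfe2l3, with values of 0.360 to 1.49 in replicate 1 and 0.413 to 1.16 in replicate 2. A run of 7 over 3.64 kb lay in the desert of Meis1, a homeobox gene of brain development (0.367 to 0.989 and 0.251 to 0.838). The peak caller decides where an open region is split into peaks. Some members also overlap or abut one another, and some in the Meis1 run are nested calls that cover the same bases. Each was counted as a member of its own. Runs, counts of members and the share within 10 kb are therefore of listed peaks and not of separate open sites.

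The density of desert peaks differed between the gene lists. Of the 155 listed transcription factor genes of brain development, 72 were the nearest coding gene of at least 1 member, 287 members in all (6.75%, 6.01 to 7.54), where these genes were nearest to 4.39% of eligible desert sequence. On the autosomes they came to 9.11 members per Mb, against 6.56 over all desert sequence. The 28 activity-regulated genes had a higher density, 13.1 per Mb, over 1.30 Mb of eligible sequence and 17 members, 12 of them nearest to Inhba, which encodes an activin subunit, 3 nearest to the neurotrophin gene Bdnf and 1 nearest to Jun, an AP-1 subunit gene. Channel and neurotransmitter receptor genes had 99 members and 4.87 per Mb. Genes of adhesion and axon guidance, nearest to 11.4% of eligible desert sequence, had 238 members but 2.85 per Mb, with lower median values (0.406 in replicate 1 and 0.413 in replicate 2, against 0.565 and 0.464 near transcription factor genes). Olfactory and vomeronasal receptor genes, known for work in the nose, had 8 members and 2.95 per Mb, with 2 each nearest to Olfr1507, Olfr161 and Vmn1r238. Density and value fell with distance from a TSS, and the lists were not matched for distance. The 94 adhesion and guidance genes with eligible sequence were nearest to 85.2 Mb of it, and the 103 transcription factor genes to 32.8 Mb. Whether distance accounts for the differences between lists was not tested. Nearest is a matter of position and does not show which gene a site acts on.

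Tcf4, an E-protein gene whose product pairs with other helix-loop-helix factors, led the transcription factor list with 16 members 112 to 367 kb away (median values 0.834 and 0.709). Of these, 9 had a footprint in both libraries and none the CTCF consensus. Over all members these shares were 57.6% and 3.76%, so the counts do not set these 16 apart. Tox3 had 14 (0.565 and 0.558) and Sox9, a factor of astrocytes and progenitors, 12 (0.502 and 0.506). The desert that Sox9 shares with Kcnj2, an inward rectifier potassium channel gene, held 18. Among adhesion and guidance genes Fam19a5, which encodes a secreted protein of the brain, had 12 members 139 to 580 kb away (0.526 and 0.384), Cdh8, a cadherin gene, had 11 members 482 to 1530 kb away (0.403 and 0.438), and the latrophilin gene Adgrl2 had 10 (0.449 and 0.419). Among channel and receptor genes Galr1, a galanin receptor gene, had 11 (0.685 and 0.490), Kcnj2 had 9 (0.466 and 0.522) and Grm7, a metabotropic glutamate receptor gene, 8 (0.505 and 0.400). CTCF matches were found in 3 of 287 members near transcription factor genes (1.05%, 0.216 to 3.02), against 3.76% of all members. The share was 2.02% near channel and receptor genes and 4.62% near adhesion and guidance genes. In nearer intergenic peaks of the transcription factor genes it was 3.52%, against 9.89% of all nearer intergenic peaks.

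**Figure D5:**
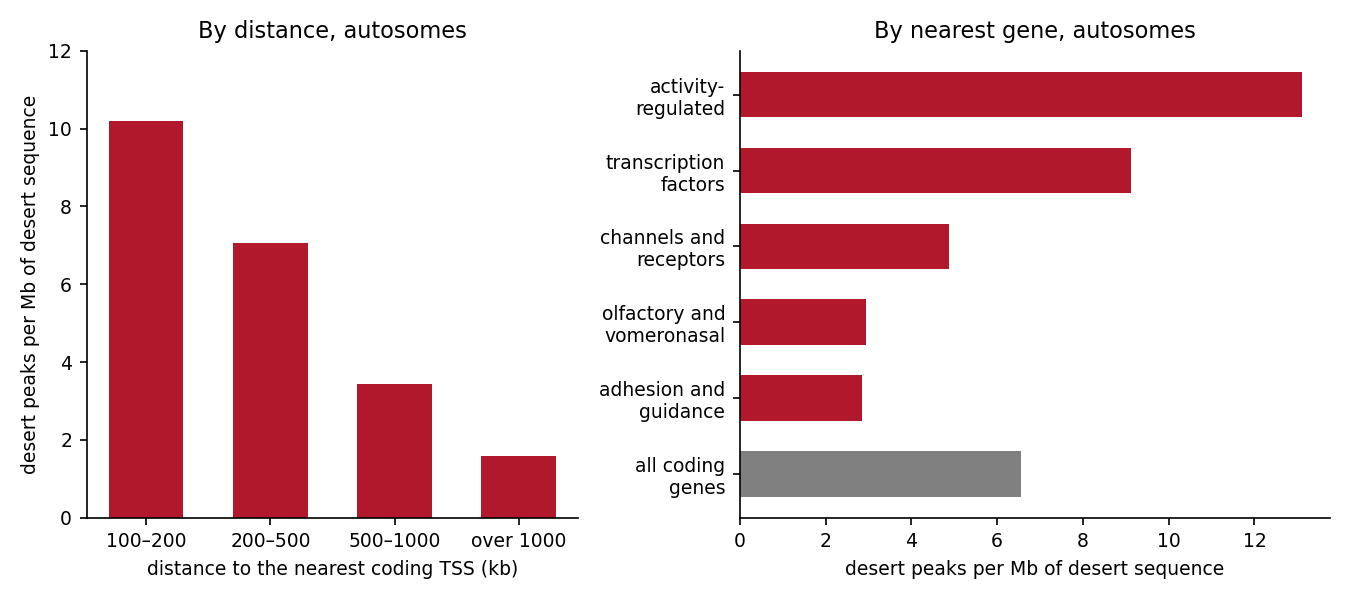
Desert peaks per Mb of eligible desert sequence on the autosomes, by distance to the nearest TSS of a protein-coding gene (left) and by the list the nearest gene belongs to (right). Density is 10.2 per Mb at 100 to 200 kb and 1.60 beyond 1000 kb, and it is 13.1 per Mb for activity-regulated genes, 9.11 for listed transcription factor genes and 2.85 for adhesion and guidance genes, with 6.56 over all coding genes.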

How the data were processed

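DNase-seq of 2 libraries of 1 group was used. For each library the authors deposited 2 peak lists of different stringency, a footprint list and a file of bases with their false discovery rate, all on mm10 per the labels. The peak value is the authors' signal for each peak in that library, unpooled. Its scaling, the aligner, the callers, their versions and the cut counts are not stated in those sources, so depth is unknown. The deposited FDR p-value files list bases under 0.05, and stricter peaks hold one of at most 0.001.

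Genes and TSSs (every transcript of protein-coding genes) came from GENCODE M21 and sequence and soft-masking from the RefSeq copy of GRCm38.p6, the same build. Tools were Python 3.11.15 with scipy 1.17.1, pandas 2.3.3, numpy 2.4.6 and matplotlib 3.10.9, and blastn 2.17.0 for copies (at least 90% identity over 80% of the length). The interval and motif steps were tested on simulated data. A footprint was counted in a peak when its middle lay there, and a match in a footprint when the middle base of the match did. Motifs were consensus letters on both strands in 150 bases around the middle base; those of 7 letters or fewer not named elsewhere were ACATTCC (TEAD) and GGGGCGG (GC box), and CRE, MEF2, full NFI, RFX, POU and EGR sites were searched too. Nearer intergenic peaks lay 1 to 100 kb from a TSS, and intronic peaks had their middle in no exon. Groups are described with exact Clopper-Pearson intervals (95%), which cover counting error only, and no test was made. No sequence of chromosome 18 is shown. Members, lists and the sequences shown were chosen with earlier results of these data known. Named members were the 10 of highest mean value, the 5 extremes of footprints, distance and GC, the strongest by motif, the 10 fullest and 5 densest deserts and the 3 leading genes of each list.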

Additional observations from a re-analysis of the deposited data

How the results depend on the processing

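Of 102 values of the 9 results under other settings, 66 stayed within 1.5 times the count of members, within 1 SD of the libraries (1 base of the window for GC) or within the exact interval of the share, and 36 did not. No cause of a shift was tested.

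With the authors' stricter peak list there were 1382 members in place of 4253, with a median value of 0.821, a footprint in both libraries in 80.7%, GC of 52.0%, the CTCF consensus in 7.96%, 1.37% mostly soft-masked and 19.8% within 10 kb of another. With at least 50% of each peak shared there were 2651 members, a median value of 0.577, a stricter-list share of 42.7%, a footprint share of 69.8%, a CTCF share of 5.51% and 22.0% within 10 kb of another. At more than 50 kb from a TSS there were 6586 members, with 4.74% for CTCF, 38.7% within 10 kb and 5.57% nearest to a listed transcription factor gene. At more than 200 kb there were 2410, with 3.03%, 34.1% and 8.05% for the same shares. The share within 10 kb of another member was 37.4% for replicate 2 peaks that overlap replicate 1 peaks and 38.8% when protein-coding gene bodies alone were left out, and 60.8% of members lay within 50 kb of another. The CTCF share was 4.49% over the whole peak and 11.1% with 1 mismatch, a setting added after seeing the data, as was leaving out chromosomes X and Y. Either flanking gene was a listed transcription factor gene for 13.7%.

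With 1 library left out, members need no partner, and footprints and stricter peaks are those of the library kept. There were 7321 desert peaks without replicate 1 and 8487 without replicate 2. Over these settings the median value was 0.406 to 0.410, the CTCF share 2.00% to 3.37%, the mostly soft-masked share 6.16% to 6.59% and the share within 10 kb of another 46.0% to 50.5%. The CTCF share was below that of nearer intergenic peaks, and the CAGATG and NFI core shares above it, in all 9 settings in which these groups were recomputed. In the stricter list CTCF stood in 7.96% of members and 15.5% of nearer intergenic peaks, and CAGATG in 21.9% and 16.4%. The share of the stricter list within itself has no value and was not computed. No paired analysis was possible because there is 1 group.

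Depth is unknown, so a desert site absent from a list is not shown to be closed. 2 libraries limit every SD, and separate animals are not known. Consensus letters miss weaker sites.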

Other observations

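Of the desert peaks of replicate 1 under the same value limit, 4234 had no partner in the library labelled male replicate 2, so that 50.1% were shared, against 55.2% of all replicate 1 peaks under 2. The unshared desert peaks had a median value of 0.318 and a median width of 118 bp, against 0.551 and 220 bp in members. The CTCF consensus stood in 0.236% of them (0.113 to 0.434), against 3.76% of members. CAGATG stood in 20.7%, against 22.7% of members, and the NFI core in 13.8%, against 17.4%. Their windows had a median GC of 50.7%, the same as in members, and 10.8% were mostly soft-masked, against 2.35%. At the other end, of the 74 shared desert peaks with a value of 2 or more, 12 held the CTCF consensus (16.2%, 8.67 to 26.6), and all 74 had a footprint in both libraries.

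On the X chromosome 76 members lay in 55.1 Mb of eligible sequence (1.38 per Mb), where autosomes had 6.56 per Mb. Their median values were 0.417 in replicate 1 and 0.422 in replicate 2, and 41 of 76 were higher in replicate 2. On the autosomes the medians were 0.558 and 0.496, and 38.7% were higher in replicate 2. The Y chromosome held 4 members, with values of 0.0919 to 0.205 in replicate 1 and 0.0709 to 0.187 in replicate 2, and at least 83.5% of the bases of each were soft-masked, in the library with no Ddx3y or Uty promoter peak as well as in the other. Of the 202 deserts with at least 1 Mb of eligible sequence, 27 held no member, the longest of them Gm21783 to Gm21256 on the Y chromosome.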
